A study of Mus musculus with 9 samples.

Results

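Antigen presentation genes encode the molecules that display peptides to T cells on the cell surface. Among them 10 were chosen by name, 5 of the class I pathway (*H2-K1*, *H2-D1*, *B2m*, *Tap1* and *Nlrc5*) and 5 of the class II pathway (*H2-Aa*, *H2-Ab1*, *H2-Eb1*, *Cd74* and *Ciita*), and all 10 were found among the 55450 genes of the count table. Their RNA was counted by poly(A) sequencing in Rathke’s pouch, the embryonic primordium of the anterior pituitary, from 7 embryos at e13.5, and in the pituitary of 2 adult mice at week 8 from which the posterior lobe had been taken off. All animals came from a mixed 129Sv/c57BL6J background, the embryos were *Sox2*Egfp/+ (a reporter allele at a gene of the pituitary progenitors), and the genotype of the adults at *Sox2* is not given in the sources used here. Both sexes were present at each stage, but the sex of each sample is not given. Each library came from a separate animal, and between 16738863 and 36421545 read pairs were counted on genes per library. The counted share of all read pairs was 59.7% in embryo 1 and 62.8% in embryo 4, against 73.9% to 80% in the other embryos. It was 84.0% and 83.7% in the adults. In embryo 1, 10.3% of the read pairs were not aligned.

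In the class I pathway, peptides cut in the cytosol by the proteasome are pumped by a transporter into the endoplasmic reticulum and loaded onto a heavy chain paired with beta-2 microglobulin, a light chain. Nearly all nucleated cells do this. In the class II pathway, proteins taken up from outside are digested in endosomes and their peptides loaded onto an alpha and a beta chain, mainly in macrophages, dendritic cells and B cells. The pituitary holds resident macrophages among its hormone cells. Class I genes are transactivated by the protein encoded by *Nlrc5* and class II genes by that of *Ciita*, and interferon gamma raises both sets.

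RNA of 9 of the 10 genes was higher in the adult at an adjusted p-value below 0.05, and that of *B2m* did not pass. Both adult libraries lay above all 7 embryo libraries for 10 of 10 genes, which held for 32.9% of all 19371 genes tested. A gene was called at a fold change above 4 with an adjusted p-value below 0.05, and 8 of the 10 were called higher in the adult, against 14.6% of all genes, and 0 were called higher in the embryo, against 11.3%. At an adjusted p-value below 0.05 with any fold change, 27.4% of all genes were higher in the adult. No member was higher in the embryo at an unadjusted p-value below 0.05 in edgeR, and DESeq2 called 9 higher in the adult and 0 higher in the embryo. The median log2 fold change, always given as embryo over adult, was −4.47 over the 10 genes and −0.04 over all genes tested. *Nlrc5* and *Ciita* had mean counts under 5 in the embryo, and so passed the filter on low counts through the adult libraries alone, and of the other 8 members 6 were called. In whole-tissue RNA, fewer cells of a type and less RNA per cell cannot be told apart. The 2 adults give a single difference as their spread.

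**Figure D1:**
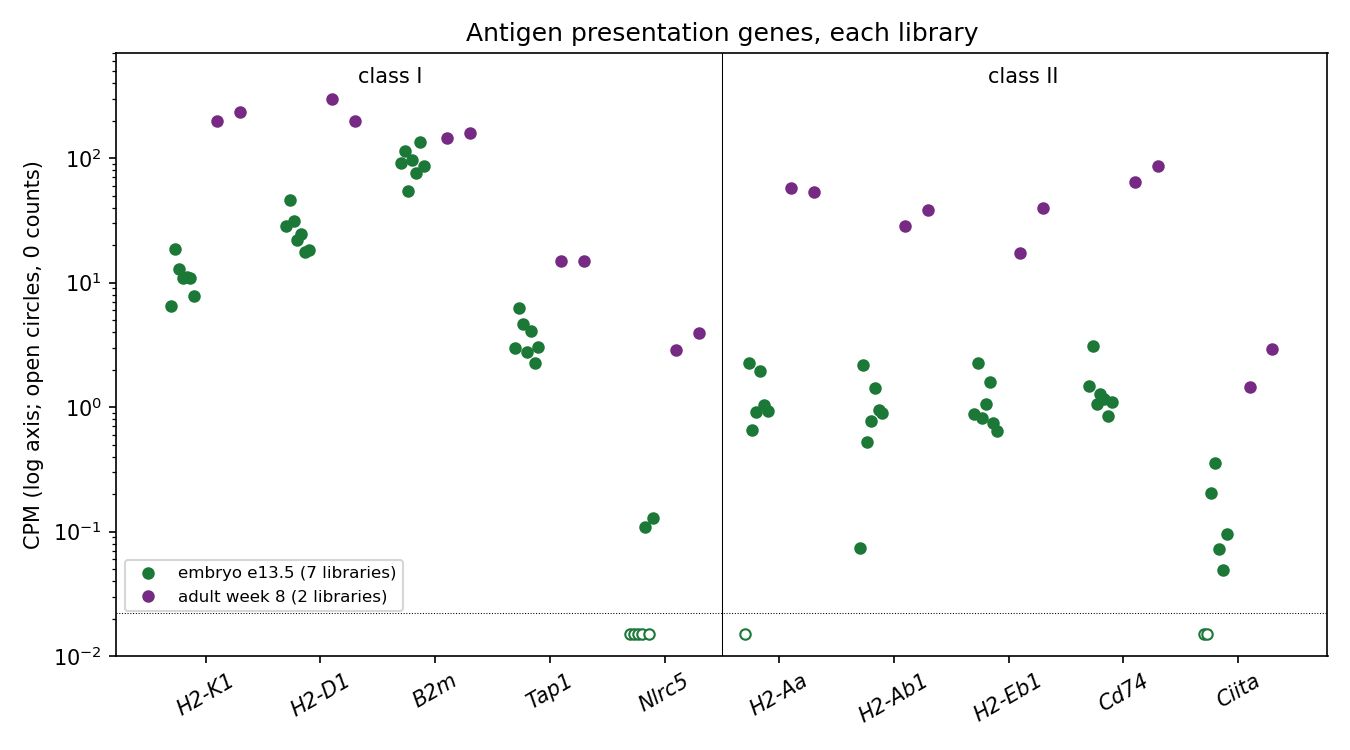
Expression of the 10 genes in each library, in CPM (counts per library, scaled with TMM factors to the same total) on a log axis, with 7 embryo libraries in green and 2 adult libraries in purple; open circles at the bottom are libraries with 0 counts. *B2m* has the closest groups, from 54.6 to 136 CPM in the embryo against 145.9 and 159.6 CPM in the adult, and the class II genes are at 3.11 CPM or less in every embryo.

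The class I heavy chains stood far apart between the stages. *H2-K1* (ENSMUSG00000061232.16, chromosome 17, 33996017 to 34000347 in GRCm38) encodes the K heavy chain, which holds the peptide. In CPM, counts scaled for library size and composition, it was at 6.52 in the lowest embryo, 11.0 in the median embryo and 18.7 in the highest, and at 199.7 and 234 CPM in the adults. The groups were separated by a gap wider than the range of either, with embryo 1 lowest and embryo 2 highest. The embryo mean was 11.3 ± 3.94 CPM (SD, n = 7) and the adult mean 217 ± 24.5 CPM (SD, n = 2), and the fitted log2 fold change was −4.26 (standard error 0.30, edgeR adjusted p = 2.2e-07). *H2-D1* (ENSMUSG00000073411.11, chromosome 17, 35262730 to 35267499), the D heavy chain, was at 17.5 CPM in the lowest embryo, 24.6 in the median and 46.0 in the highest, and at 296 and 199.9 CPM in the adults. Embryo 2 was again the highest embryo, and the adults kept apart from all embryos although they differed from each other more than for *H2-K1*. Its log2 fold change was −3.21 (standard error 0.30, edgeR adjusted p = 2.7e-06). Pairs of reads that align equally well to several of the similar class I genes were not counted, so the levels of these heavy chains are uncertain by an unknown amount. Over the whole genome, such multiple alignments took from 14.1% to 26.1% of an embryo library and 7.16% and 7.52% of the adult libraries.

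The light chain differed much less. *B2m* (ENSMUSG00000060802.8, chromosome 2, 122147686 to 122153083) encodes beta-2 microglobulin, and was at 54.6, 90.7 and 136 CPM in the lowest, median and highest embryo and at 145.9 and 159.6 CPM in the adults. The highest embryo, embryo 6, came close to the lower adult, and the groups did not overlap. Its log2 fold change of −0.71 (standard error 0.29) did not pass, with an edgeR adjusted p = 0.055, and when the libraries were adjusted for GC content and the length of transcripts it was −1.38 with edgeR adjusted p = 0.0016. Over the alternatives the adjusted p ran from 0.0016 to 0.28. The sum of *H2-K1* and *H2-D1* per 100 CPM of *B2m* was 20.9 in the lowest embryo, 38.5 in the median and 80.7 in the highest, and 340 and 272 in the adults. The balance between the heavy chains also moved, with 22.9 to 62.9 CPM of *H2-K1* per 100 CPM of *H2-D1* in the embryos (median 42.3) and 67.4 and 117 in the adults. These ratios are descriptions and were not tested.

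*Tap1* (ENSMUSG00000037321.17, chromosome 17, 34187553 to 34197225) encodes a subunit of the peptide transporter. The lowest, median and highest embryos had 2.28, 3.02 and 6.22 CPM, and the adults 14.8 and 14.9 CPM. The adults were nearly equal, and the highest embryo was well below them. The log2 fold change of −1.99 (standard error 0.38, edgeR adjusted p = 6.3e-04) sat at the edge of the fold change of 4, so *Tap1* was not called, and it was called under 12 of the 22 alternatives, those with a lower fold threshold included. Its 5′ neighbour on the opposite strand, *Psmb9*, overlaps it in the annotation, and only read pairs on the strand of each gene were counted.

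The class I transactivator was near the floor of detection in the embryo. *Nlrc5* (ENSMUSG00000074151.13, chromosome 8, 94434356 to 94527272) had 0 counts in 5 of the 7 embryos, 3 counts in embryo 5 and 4 in embryo 7, and 119 and 141 counts in the adults, or 2.89 and 3.96 CPM. With 7 counts over all embryos and 260 over both adults, the adult to embryo ratio, on library sizes scaled with TMM factors, was 77.8, with an exact 95% interval of 37.3 to 196 that covers counting error only. The fitted log2 fold change was −6.25 (edgeR adjusted p = 1.2e-04), and −6.99 without embryo 7.

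The class II chains and *Cd74* were at low levels in every embryo. *H2-Aa* (ENSMUSG00000036594.15, chromosome 17, 34282744 to 34287823), the A alpha chain, was at 0 CPM in embryo 1, 0.931 in the median embryo and 2.26 in embryo 2, against 57.7 and 53.3 CPM in the adults. *H2-Ab1* (ENSMUSG00000073421.6, chromosome 17, 34257689 to 34269419), the beta chain that pairs with it, ran from 0.0733 CPM in embryo 1 through a median of 0.898 to 2.16 CPM in embryo 2, against 28.3 and 38.5 CPM. In both genes embryo 1 was the lowest embryo and embryo 2 the highest, and all 7 embryos lay below both adults. Embryo 1 was also the library with the smallest share of its read pairs counted, 59.7%. The log2 fold changes were −5.60 (standard error 0.58, edgeR adjusted p = 5.4e-06) for *H2-Aa* and −5.06 (standard error 0.54, edgeR adjusted p = 6.9e-06) for *H2-Ab1*. Embryo 1 had 0 counts of *H2-Aa* and 1 of *H2-Ab1*, and 3 counts were 0.220 CPM in that library, so that 0 counts do not exclude RNA below this level there.

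*H2-Eb1* (ENSMUSG00000060586.11, chromosome 17, 34305867 to 34316674) encodes the E beta chain. It was at 0.642, 0.879 and 2.26 CPM in the lowest, median and highest embryo, and at 17.2 and 40.0 CPM in the adults, so that adult 2 stood well above adult 1. For *H2-Eb1* the fitted log2 fold change was −4.63 (standard error 0.44, edgeR adjusted p = 2.7e-06), and −3.91 without adult 2. *Cd74* (ENSMUSG00000024610.15) encodes the invariant chain, which guides class II molecules to the endosome and blocks their groove until then. It had 0.842 CPM in the lowest embryo, 1.16 in the median and 3.11 in the highest, and 64.9 and 86.7 CPM in the adults. By mean CPM *Cd74* was the most abundant class II gene at both stages, although in embryos 5 and 6 *H2-Aa* and *H2-Ab1* were higher. Embryo 2 stood above the other embryos for *Cd74*. The log2 fold change of *Cd74* was −5.72 (standard error 0.37, edgeR adjusted p = 1.2e-07).

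*Ciita* (ENSMUSG00000022504.10, chromosome 16, 10480059 to 10528418), the class II transactivator, had 0 to 5 counts in the embryos and 60 and 104 counts in the adults, or 1.45 and 2.92 CPM. It was at 0 in embryos 1 and 2, and embryo 2 was the embryo with the most *H2-Aa*, *H2-Ab1*, *H2-Eb1* and *Cd74*. With 16 counts over the embryos and 164 over the adults, the adult to embryo ratio, on the same scaled library sizes, was 21.5 (exact 95% interval 12.8 to 38.5, counting error only). The fitted log2 fold change was −4.31 (edgeR adjusted p = 0.0015), and −3.72 without adult 2 (adjusted p = 0.038, with a range of 1.4e-04 to 0.038 over the alternatives). *Dexi*, a neighbour that overlaps *Ciita* on the opposite strand, had 410 to 892 counts in the embryos, and these are kept apart by strand.

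**Figure D2:**
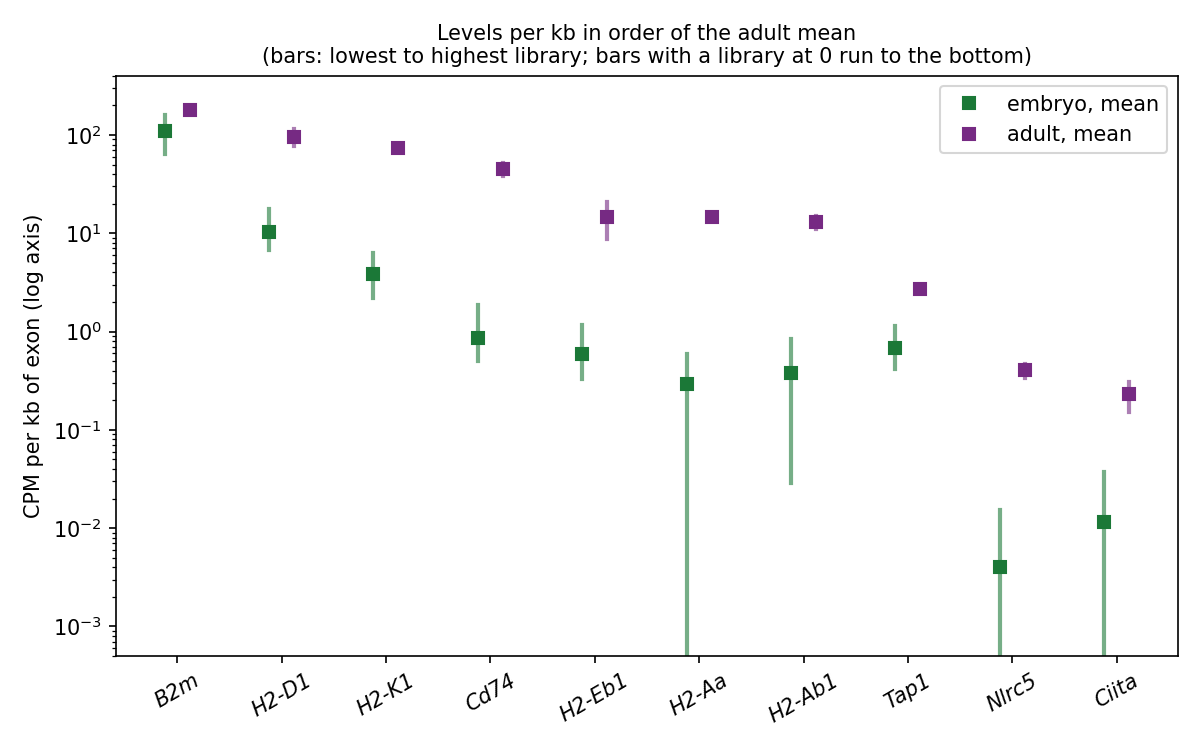
Mean level of each gene per kb of its exons, in CPM per kb on a log axis, for the embryo (green) and the adult (purple); bars run from the lowest to the highest library, down to the bottom where a library had 0 counts. *B2m* is at the top at both stages, at 109 and 178 CPM per kb, and the transactivators *Nlrc5* and *Ciita* are at the bottom.

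Per kb of exon, *B2m* had the highest level at both stages, 109 ± 30.5 CPM per kb (SD, n = 7) in the embryo and 178 ± 11.3 CPM per kb (SD, n = 2) in the adult. In the adult it was followed by *H2-D1* at 96.2 and *H2-K1* at 73.9 CPM per kb, which did not differ beyond their spread, and by *Cd74* at 45.1. *H2-Eb1*, *H2-Aa* and *H2-Ab1*, at 14.7, 14.6 and 13.0 CPM per kb, also did not differ beyond their spread in the adult. *Tap1* had 2.71, *Nlrc5* 0.403 and *Ciita* 0.230 CPM per kb. In the embryo the order was *B2m*, *H2-D1* at 10.4, *H2-K1* at 3.84, *Cd74* at 0.850, *Tap1* at 0.678, *H2-Eb1* at 0.587, *H2-Ab1* at 0.378 and *H2-Aa* at 0.292 CPM per kb, and the last 5 of these overlapped in their spread. By mean *Tap1* thus stood between *Cd74* and the class II chains in the embryo, and below all of them in the adult. The level of *H2-Ab1* depends on the length used, since its longest transcript spans 1212 bp of 2568 bp of annotated exon, and per kb of that transcript it was at 27.5 CPM in the adult.

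Promoters were read because every member lay higher in both adults than in any embryo, although *B2m* did not pass and *Tap1* was not called. Class I and class II promoters are known to share a module with an X box, part of which reads TGACG and is bound by CREB family proteins, and a Y box, an inverted CCAAT that reads ATTGG and is bound by NF-Y. Windows from 250 bases before to 50 bases after the start of the gene, from RefSeq on GRCm38.p6, were matched by symbol for 6 of the 10 genes, and *H2-Ab1*, *Nlrc5*, *Cd74* and *Ciita* had no entry. The letters TGACG followed by ATTGG after 15 to 25 bases, a spacing set after the sequences were read, were found in *H2-K1*, *H2-D1*, *B2m* and *H2-Aa*. Each stretch is printed 5′ to 3′ in the direction of its gene, with these letters in capitals, 30 bases before them and 20 after, because a class I heavy chain, the light chain and a class II chain all hold the pair.
H2-K1: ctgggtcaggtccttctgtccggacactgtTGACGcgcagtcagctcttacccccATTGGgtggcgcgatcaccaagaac
H2-D1: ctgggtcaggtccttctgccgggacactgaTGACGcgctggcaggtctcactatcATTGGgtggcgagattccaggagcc
B2m: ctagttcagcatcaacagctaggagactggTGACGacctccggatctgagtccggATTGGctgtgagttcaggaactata
H2-Aa: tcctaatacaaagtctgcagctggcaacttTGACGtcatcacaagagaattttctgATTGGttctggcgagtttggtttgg
These stretches are at chr17:34000339-34000418 on the minus strand, chr17:35262963-35263042 on the plus strand, chr2:122147579-122147658 on the plus strand and chr17:34287847-34287927 on the minus strand. The 2 motifs were 20 bases apart in the class I genes and 21 in *H2-Aa*, and TGACG began 41, 101, 78 and 74 bases before the start (55 bases in another entry of *H2-K1*). On either strand, this pair was found in 0.435% of the 32851 promoter windows, TGACG alone in 20.8% and ATTGG alone in 37.4%. The motifs do not overlap each other. The window of *Tap1* held TGACG, and ATTGG on the other strand, without that spacing, and the window of *H2-Eb1* held ATTGG and not TGACG. The letters GGGATTCCC, a known NF-kappaB site of class I promoters, were in the windows of *H2-K1* and *H2-D1* and in 0.353% of all windows. *B2m*, with the smallest difference between the stages, and *H2-Aa*, with a log2 fold change of −5.60, both held the pair. Among the listed genes outside the members, it was found on either strand in *H2-M3* and *H2-Q7* (2 of 11 non-classical class I genes with a window) and in *Jak1*, and none of these 3 was called without the adjustment for length and GC content. A match of letters shows no binding.

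The rest of the pathway was described from lists of genes chosen by function. Over 7 lists, 91 genes were tested. Of these 30, or 33.0%, were called higher in the adult and 0 higher in the embryo, against the 14.6% and 11.3% of all genes. At an unadjusted p-value below 0.05 in edgeR, 10 were higher in the embryo, and DESeq2 also called 30 and 0. By list, those 10 were 2 genes of class I processing, 1 non-classical class I gene, 3 SXY-binding factors (proteins of the X and Y boxes), 3 genes of interferon signalling and 1 of costimulation, and none was an accessory gene of class II or a target of interferon.

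**Figure D3:**
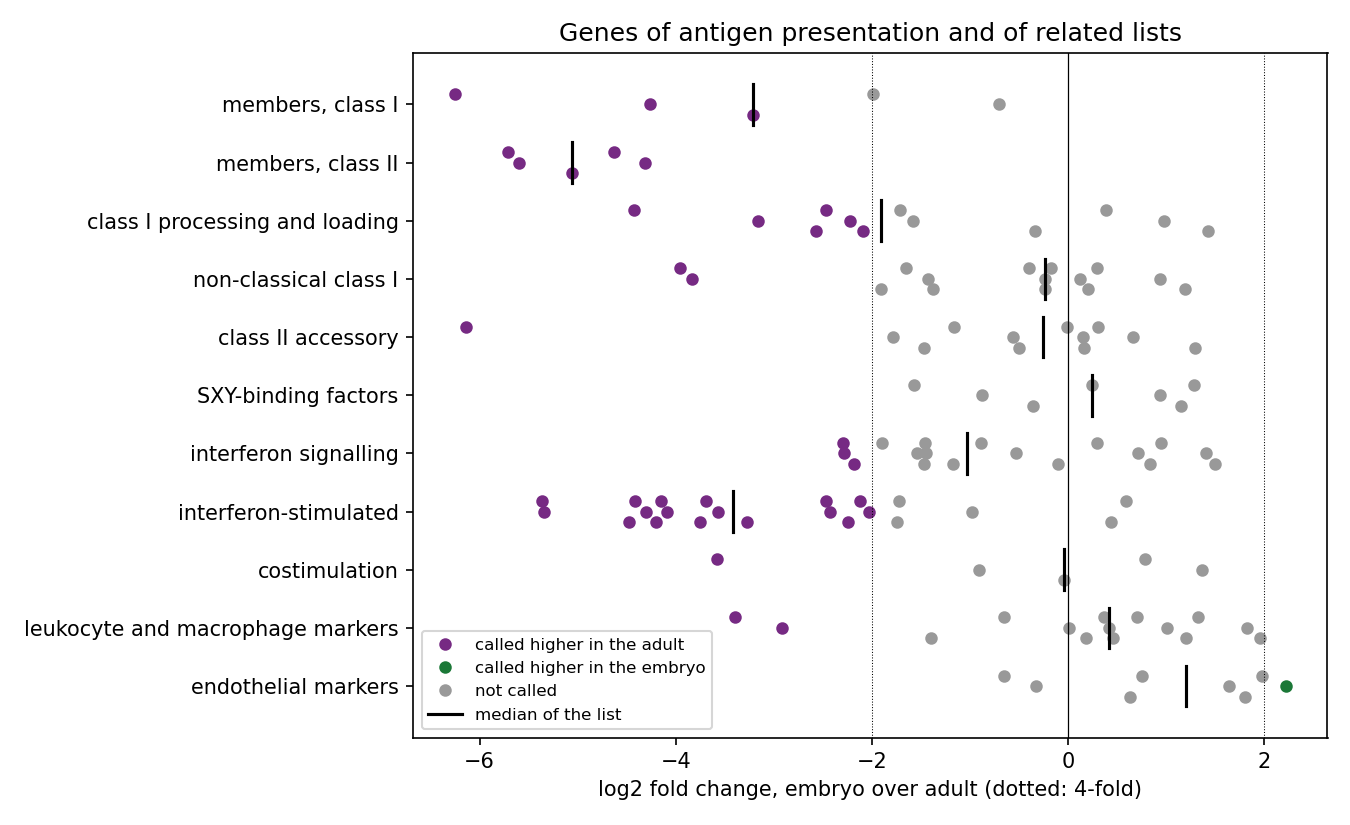
Log2 fold change, embryo over adult, of each tested gene in the lists of antigen presentation and of related functions or cell types, with genes called higher in the adult in purple, higher in the embryo in green and not called in grey; black bars are list medians and dotted lines mark a fold change of 4. The class II genes and the interferon-stimulated genes lie to the left, with medians of −5.06 and −3.42, and the medians of the SXY-binding factors and macrophage markers are 0.25 and 0.42.

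Genes that prepare and load class I peptides were called higher in the adult in 6 of 12 cases, against the 14.6% of all genes. None was called higher in the embryo, and the median log2 fold change was −1.90. *Tap2*, the partner of *Tap1* in the transporter, was at 0.366 CPM in the lowest embryo, 1.52 in the median and 1.79 in the highest, against 26.1 and 28.8 CPM in the adults. This was a larger difference than that of *Tap1*, at a log2 fold change of −4.43 (standard error 0.43, edgeR adjusted p = 3.3e-06). *Erap1*, which trims peptides in the endoplasmic reticulum, had a log2 fold change of −3.16, and −1.80 after the adjustment for length and GC content, where it was no longer called. *Tapbp* (tapasin, which holds the heavy chain at the transporter) had −2.57 and its relative *Tapbpl* −2.47. The immunoproteasome subunits *Psmb8* and *Psmb9* were called, at −2.09 and −2.22, and *Psmb10* was not, at 0.38, which turned to −0.71 (edgeR adjusted p = 0.022) after the adjustment. The proteasome activator subunits lay on the other side. *Psme2* had 129.7 to 293 CPM in the embryos and 78.3 and 73.1 CPM in the adults, all 7 embryos above both adults, with a log2 fold change of 1.43 (edgeR adjusted p = 0.0023), and 0.06 after the adjustment. *Psme1* had 0.97, and 0.30 after it. The chaperones were the most abundant of the list, *Calr* in the embryo at 756 CPM and *Pdia3* in the adult at 1137 CPM, and neither they nor *Canx* were called.

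Of the 15 non-classical class I genes 2, or 13.3%, were called higher in the adult, near the 14.6% of all genes, and 0 higher in the embryo, with a median of −0.24. At an adjusted p-value below 0.05 with any fold change, 6 of 15 were higher in the adult and 1 in the embryo. After the adjustment for length and GC content 4 of 15 were called, with *H2-Q4* at −2.32 and *H2-M3* at −2.59 added, when 12.25% of all genes were called higher in the adult. The 2 called without it were *H2-Q6*, at 0.396 to 1.12 CPM in the embryos and 12.4 and 9.00 CPM in the adults (log2 fold change −3.95), and *H2-Q2*, at 1.17 to 7.64 CPM and 63.9 and 92.2 CPM (−3.83). *H2-Q7* had 2.28 to 8.96 CPM in the embryos and 8.85 and 6.44 CPM in the adults, so that its groups overlapped. These genes are near copies of each other and their counts are uncertain for the reason given for the heavy chains. *Fcgrt*, the neonatal Fc receptor, which carries antibody and presents no peptide, was the most abundant of the list in the embryo and had the highest log2 fold change, 1.19 (edgeR adjusted p = 0.0067), a fold change under 4. After the adjustment for length and GC content *Fcgrt* was at 0.41 and did not pass (edgeR adjusted p = 0.21), and *H2-T22* was the highest, at 0.77. *H2-T22* differed between the adults, at 9.99 and 38.1 CPM, and its log2 fold change of 0.93 became 2.19 without adult 2, where it was called higher in the embryo.

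Among the accessory genes of class II, 1 of 12 tested was called higher in the adult and 0 higher in the embryo. Over all genes these shares were 14.6% and 11.3%. The median log2 fold change was −0.26. The chains that exchange the peptide were not called. *H2-DMa* was at 4.97 CPM in the lowest embryo, 7.72 in the median and 10.5 in the highest, and at 7.32 and 8.04 CPM in the adults, so the adults fell inside the range of the embryos. Its log2 fold change was −0.01 (standard error 0.35, edgeR adjusted p = 0.981), and −0.67 after the adjustment for length and GC content (edgeR adjusted p = 0.061). *H2-DMb1* had −1.16, with both adults above all embryos, and *H2-DMb2* 1.29, and neither passed. After the adjustment *H2-DMb2* was at 0.35. The gene called was *H2-Eb2*, a second E beta chain gene, at 0 to 0.594 CPM in the embryos and at 5.89 and 30.3 CPM in the adults, with adult 2 far above adult 1 (log2 fold change −6.13). *H2-Ea-ps*, the E alpha gene, which c57BL6J mice carry in a defective form, had 0 counts in all 7 embryos and in adult 2, and 15 in adult 1. The endosomal protease *Ctss*, which trims the invariant chain, had −1.47 (edgeR adjusted p = 0.0024), under a fold change of 4, and the most abundant gene, *Ctsb*, had −0.57, and 0.04 after the adjustment. After the adjustment for length and GC content 3 of the 12 were called, with *H2-DMb1* at −2.19 and *Ctss* at −2.05, when 12.25% of all genes were called higher in the adult.

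Genes of the proteins that bind the X and Y boxes were not called. Of 7 genes 0 were above a fold change of 4 with an adjusted p-value below 0.05, by edgeR or by DESeq2. Over all genes edgeR called 14.6% higher in the adult and 11.3% higher in the embryo, and 0 of 7 is close to these shares. The median log2 fold change was 0.25. After the adjustment for length and GC content 0 were called, when 12.25% of all genes were called higher in the adult and 8.56% in the embryo. The median was then 0.95, so that the size of this median rests on that choice. With any fold change, 1 was lower in the embryo and 3 were higher at an adjusted p-value below 0.05, the same numbers as at an unadjusted one. Over all genes 27.4% were lower in the embryo at that adjusted p-value, and the share that were higher is not given here. *Rfx5* was at 8.79, 18.4 and 22.2 CPM in the lowest, median and highest embryo and at 51.0 and 47.7 CPM in the adults, a log2 fold change of −1.57 (edgeR adjusted p = 0.0012), whereas its partner *Rfxank* had 1.16 (adjusted p = 0.0027). The NF-Y subunit *Nfyc*, the most abundant in the embryo, had the highest value, 1.28. *Creb1*, of the CREB family and the most abundant in the adult, overlapped between the stages, and its log2 fold change of −0.88 became 1.04 after the adjustment. Without embryos 1 and 4 the value of *Creb1* was −1.39 (edgeR adjusted p = 0.0026).

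Receptors and factors of interferon signalling were called higher in the adult in 3 of 18 cases, close to the share among all genes, and 0 were called higher in the embryo. At an adjusted p-value below 0.05 with any fold change, 10 of 18 were higher in the adult and 2 in the embryo, against 27.4% of all genes higher in the adult, and for 11 of 18 both adults lay above all embryos, against 32.9%. The median was −1.03. *Stat3*, *Jak2* and *Irf7* were called, at −2.30, −2.29 and −2.18. After the adjustment for length and GC content *Stat3* was at −1.57 and *Jak2* at −1.22, neither called, and *Irf7* at −2.36 kept its call. *Irf1*, a direct activator of class I genes, averaged 15.4 ± 4.08 CPM (SD, n = 7) over the embryos, and the adults had 42.5 and 42.6 CPM. Its log2 fold change was −1.46 (edgeR adjusted p = 8.2e-04), and −2.08 after the same adjustment, where it was called, so that 2 of 18 were called there. The most abundant genes were the receptor gene *Ifnar1* in the embryo (log2 fold change 0.83) and the kinase gene *Jak1* in the adult (−1.45), and neither was called. The highest value was that of *Irf3*, at 1.5.

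Targets of interferon were called higher in the adult in 17 of 22 cases tested, against 14.6% of all genes. None was higher in the embryo at an unadjusted p-value below 0.05, and the median was −3.42. Of the 17, *Gbp5* and *Gbp6* had mean counts under 5 in the embryo and passed the filter through the adult libraries alone, and 15 of the other 20 were called. *Gbp3*, a guanylate-binding protein of cell defence, was at 0 CPM in the lowest embryo, 0.163 in the median and 0.738 in the highest, and at 11.3 and 10.5 CPM in the adults (log2 fold change −5.36, edgeR adjusted p = 5.2e-05). *Gbp5* had −5.34, *Ifit3* −4.41, *Gbp2* −4.21 and *Oasl2*, an oligoadenylate synthetase-like gene, −3.75. The most abundant gene at both stages was *Ifitm3*, which blocks viral entry, at 13.1 to 48.9 CPM in the embryos and 121 and 101 CPM in the adults (−2.12, and −3.77 after the adjustment for length and GC content). *Usp18* at 0.58 and *Bst2* at 0.44 were not called, and after the adjustment for length and GC content both turned, to −0.15 and −1.12. After that adjustment 17 were called, when 12.25% of all genes were called higher in the adult. Without embryos 1 and 4 the number was 16, against 16.16% of all genes. Of the costimulation genes 1 of 5 was called, against the 14.6% of all genes. It was *Cd274*, which encodes the inhibitory ligand PD-L1, at 0 to 1.57 CPM in the embryos and 10.7 and 11.2 CPM in the adults (−3.58). *Cd86* had −0.04, and *Cd40*, with the highest value, 1.37. *Pdcd1lg2*, which encodes PD-L2, was at 0 counts in every embryo and had 1 count in adult 2.

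Markers of the cells that carry class II molecules were called about as often as genes in general. Of 15 leukocyte and macrophage markers 2, or 13.3%, were called higher in the adult, near the 14.6% of all genes, and 0 in the embryo, and 11 of 15 log2 fold changes were above 0, with 5 higher in the embryo at an unadjusted p-value below 0.05. DESeq2 called 1 and 0. Summed over the list, CPM was 219 in the lowest embryo, 258 in the median and 486 in the highest, embryo 2, and 143 and 259.9 in the adults. The median log2 fold change was 0.42, and −0.25 after the adjustment for length and GC content, so that its direction rests on that choice. *C1qb*, a complement gene of macrophages and the most abundant of the list in the embryo, had 28.5 to 82.0 CPM in the embryos and 19.6 and 30.8 CPM in the adults, and *Csf1r*, the receptor macrophages depend on, 17.6 to 83.9 CPM and 25.4 and 38.5 CPM. Both genes overlapped between the stages. The markers called were *Ptprc*, which encodes the pan-leukocyte protein CD45, with 0.594 to 1.47 CPM in the embryos and 3.47 and 9.45 CPM in the adults (log2 fold change −2.91, and −1.32 and not called after the adjustment), and *Cd163* (−3.40), which was at 0 in 4 of 7 embryos. *Cd163* had a mean count of 1.57 in the embryo and was tested through the adult libraries alone, and of the other 14 markers 1 was called. The highest value was that of *Fcer1g*, which encodes a chain of Fc receptors, at 1.95, and 0.30 after the adjustment.

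**Figure D4:**
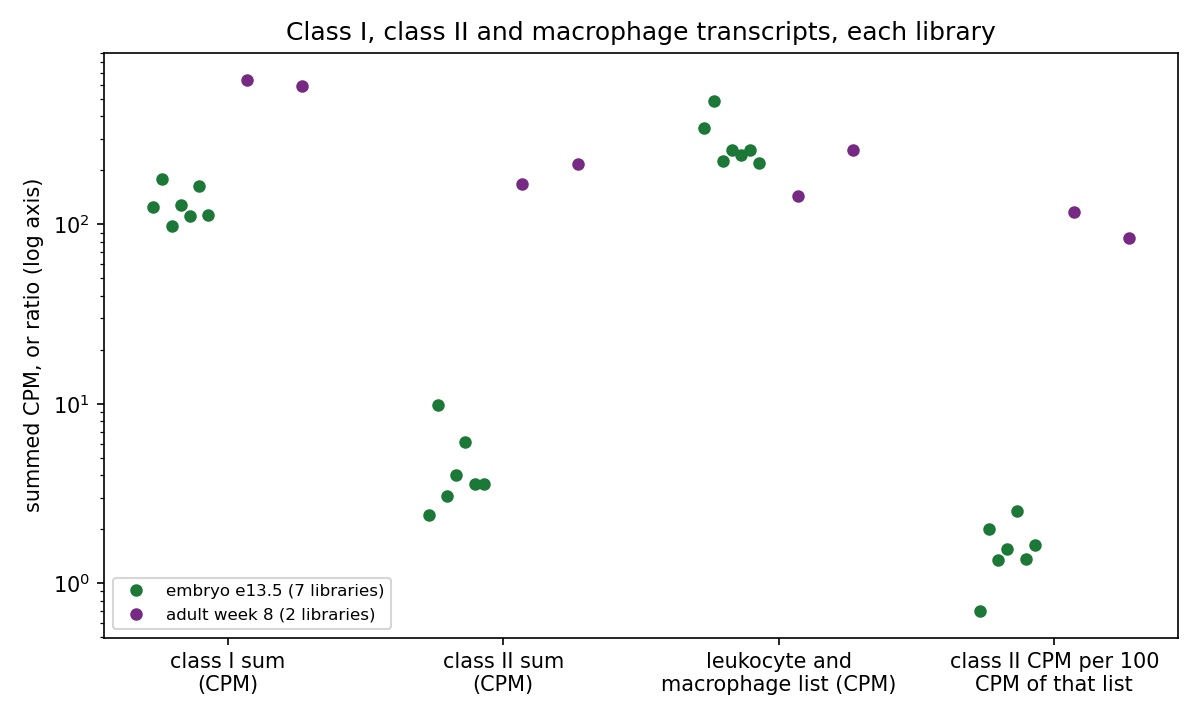
Summed CPM of the class I genes *H2-K1*, *H2-D1* and *B2m*, of the class II genes *H2-Aa*, *H2-Ab1*, *H2-Eb1* and *Cd74*, and of the 15 leukocyte and macrophage markers, and the class II sum per 100 CPM of those markers, for each library on a log axis (7 embryos in green, 2 adults in purple). The marker sums overlap between the stages, and the class II sum per 100 CPM of markers is 0.700 to 2.51 in the embryos, against 117 and 84.1 for the adults.

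The class II sum was 2.42 CPM in the lowest embryo, 3.57 in the median and 9.80 in the highest, and 168 and 218 CPM in the adults. Per 100 CPM of the leukocyte and macrophage list it was 0.700, 1.56 and 2.51 in the lowest, median and highest embryo and 117 and 84.1 in the adults. Per 100 CPM of *Ptprc* alone it was 165, 570 and 994 in the lowest, median and highest embryo, and 4846 and 2313 in the adults, a smaller gap. The class I sum was 98.6 to 179.5 CPM in the embryos (median 126) and 642 and 594 CPM in the adults. Embryo 2 had the highest class I, class II and macrophage sums of the embryos, and also the highest endothelial sum, 630 CPM against 178 to 361 CPM in the others. The part of these cells in its values was not tested.

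Markers of dendritic cells did not move in 1 direction, and those tested of B, T and NK cells all had log2 fold changes below 0. Of 8 dendritic cell markers 6 were tested. The most abundant at both stages was *Zbtb46*, a transcription factor gene of dendritic and endothelial cells, at 8.89 to 23.2 CPM in the embryos and 4.32 and 4.36 CPM in the adults (log2 fold change 1.49, edgeR adjusted p = 0.010), with all embryos above both adults, and it was called higher in the embryo after the adjustment for length and GC content, at 2.17. *Itgax*, which encodes CD11c, was called higher in the adult, with 0 counts in 5 of 7 embryos and 38 and 59 counts in the adults (a mean count of 1.14 in the embryo, so tested through the adult libraries alone), *Batf3* was called higher in the embryo, at 1.57 to 3.65 CPM against 0.267 and 0.253 CPM, and *Xcr1* and *Clec9a* had at most 3 counts in any library. Of 5 B cell markers 3 were tested and 0 called, with 1 at an unadjusted p-value below 0.05 in edgeR and 0 called by DESeq2. *Ms4a1*, which encodes CD20, had 1 count over all embryos and 8 and 33 in the adults, and *Cd79b* was the most abundant. The result for B cells depends on the choices made. Without embryos 1 and 4 all 5 were tested and 3 were called higher in the adult, when 16.16% of all genes were. These were *Ms4a1* at −5.58, *Cd79a* at −3.83 and *Pax5* at −3.2. All 3 had few embryo counts and passed the filter on low counts through the adult libraries alone. The filter itself thus favours a call higher in the adult for them. After the adjustment for length and GC content *Cd79a*, at −2.75 before it, was called at −3.72. Of 9 T and NK cell markers 2 were tested and 0 called by either tool, with 1 at an unadjusted p-value below 0.05. *Trac*, of the T cell receptor, was the most abundant and had a log2 fold change of −1.49, and after the adjustment for length and GC content it was called, at −2.5, while *Cd4* had −0.81 and was not called, and *Ncr1*, of NK cells, was at 0 counts in all 7 embryos and had 3 and 8 counts in the adults. *Ptprc*, *Ms4a1*, *H2-Eb2* and the class II members *H2-Ab1*, *H2-Eb1*, *Cd74* and *Ciita* were all higher in adult 2 than in adult 1, whereas *H2-Aa* was not. The part of these cells in the class II levels was not tested.

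Some other tissues in the samples also moved with stage. Erythroid markers, led by *Hbb-y* in the embryo, took 13.8% of the counted read pairs in embryo 1 and 16.0% in embryo 4. In the remaining embryos they took 0.734% to 1.96%, and in the adults 0.0864% and 0.226%. Of 7 erythroid markers 6 were called higher in the embryo, against 11.3% of all genes. The count was 4 without embryos 1 and 4, and 2 after the adjustment for length and GC content. *Hbb-bs* was their most abundant gene in the adult. *Alas2* had the lowest log2 fold change, 3.14, which did not pass (edgeR adjusted p = 0.062) and was 1.11 without embryos 1 and 4. Mesenchymal markers were called higher in the embryo in 4 of 6 cases, against 11.3% of all genes. They ran from *Dcn* at −0.22 to *Col3a1*, the most abundant in the embryo, at 2.87, with *Col1a2* the most abundant in the adult. Endothelial markers were called higher in the embryo in 1 of 8, near the 11.3% of all genes. The count was 2 after the adjustment for length and GC content, against 8.56%, and 3 without embryos 1 and 4, against 11.53%. The marker called without these changes was *Emcn* at 2.22, which was also the most abundant in the embryo. *Plvap* was the most abundant in the adult and *Kdr* the lowest at −0.65. Endocrine markers were called higher in the adult in 9 of 10, against 14.6% of all genes, from *Prl* at −17.2 to *Tshb* at −0.64, which was not called. *Cga* was the most abundant in the embryo and *Gh* by the mean of the adults, although in adult 1 *Prl* was higher than *Gh*. Of the 9, *Lhb* was tested through the adult libraries alone, and 8 of the other 9 markers were called. After the adjustment for length and GC content the values of *Dcn*, *Kdr* and *Tshb* turned to above 0, and none was called. Without embryos 1 and 4, the same numbers of class I and class II members were called, 3 of 5 and 5 of 5, and the medians were −3.15 and −4.78. The part of the tissue mixture in the difference of the class I genes was not tested.

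**Figure D5:**
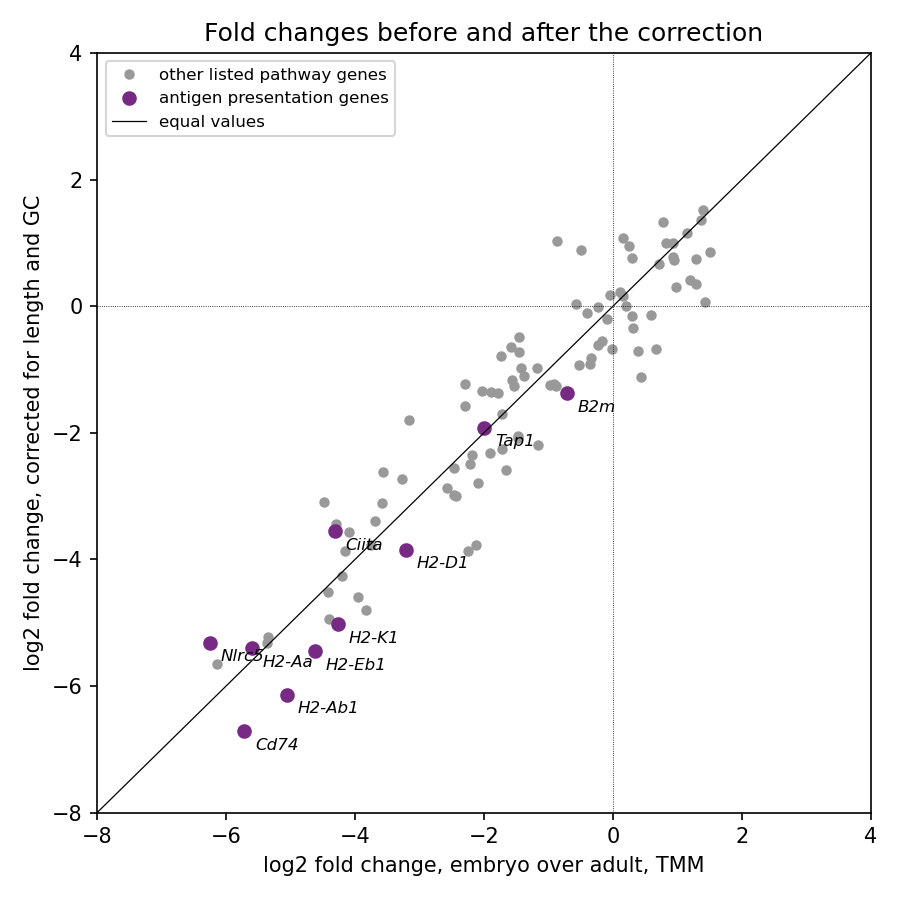
Log2 fold change, embryo over adult, from TMM normalisation (x axis) and with libraries adjusted for GC content and the length of transcripts (y axis), for the 10 genes in purple and the other listed pathway genes in grey, with a line of equal values. *Cd74* moves from −5.72 to −6.71 and *B2m* from −0.71 to −1.38, while *Nlrc5* moves the other way, from −6.25 to −5.32.

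Over all 19371 genes longer transcripts had lower log2 fold changes (Spearman correlation −0.388, and 0.0512 after the adjustment for length and GC content), so the members were also read with it. *H2-K1* then had a log2 fold change of −5.02, *H2-D1* −3.84, *H2-Ab1* −6.14, *H2-Eb1* −5.45 and *Cd74* −6.71, each further from 0 than before. The genes with the longest transcripts came nearer to 0, *Nlrc5* at −5.32 and *Ciita* at −3.55. The same numbers were called, 3 of the class I and 5 of the class II members, and *B2m* and *Tap1* were not.

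The genes with the pattern most like the mean of *H2-Aa*, *H2-Ab1*, *H2-Eb1* and *Cd74* over the 9 libraries were *Sbk2*, *Cngb1*, *Tmem63c*, *A930017M01Rik* and *Gabra4*, among 14071 genes compared. Likeness was the root mean square difference of log2 values after each gene’s mean was taken off, and it was 0.311, 0.315, 0.327, 0.331 and 0.335 for these genes. *H2-Ab1* itself was at 0.228 and *H2-Aa* at 0.391 from that mean, and *H2-K1*, of class I, at 0.353. *Cngb1*, a subunit of a cyclic nucleotide-gated channel, had at most 0.507 CPM in an embryo and 23.1 and 27.0 CPM in the adults, and *Gabra4*, a GABA receptor subunit, at most 1.32 CPM and 16.3 and 25.6 CPM. In each of *Sbk2*, *Cngb1*, *Tmem63c* and *Gabra4* embryo 2 was the highest embryo. These genes were chosen for their pattern, so this is not a separate result.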

How the data were processed

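RNA of 7 embryo and 2 adult pituitary samples was sequenced as 75 bp read pairs. The authors trimmed the reads with Trimmomatic 0.39 and aligned them with STAR 2.7.5b to mm10, and the deposited values are raw counts per gene, without normalisation. The strand-specific count was used, and STAR’s summary rows were left out. Identifiers (Ensembl 96) were given symbols from GENCODE M21. The 19371 genes whose counts averaged 5 or more were fitted with edgeR 4.0.16 in R 4.3.3 (TMM, quasi-likelihood test, stage as the only term), and p-values were adjusted over all of them by the Benjamini–Hochberg method. edgeR gives no standard error, so it was taken as the absolute log2 fold change over the square root of F. Calls needed a fold change above 4 with adjusted p below 0.05. The fit was tested on simulated data. Alternatives were DESeq2 1.42.0, other normalisations, filters and thresholds, the unstranded count, an adjustment for GC content and the length of transcripts (a 4-df spline in each), a replicate block and libraries left out. Levels per kb used the union of annotated exons. Tables and plots were made in Python 3.11.15 (matplotlib 3.10.9, pandas 2.3.3, scipy 1.17.1, numpy 2.4.6).

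The members and lists were chosen with earlier results of these data known. The text names the 10 members, genes of the fixed lists (in each, the most abundant by mean CPM of a stage, those with the largest and smallest log2 fold change and any at 0 in a whole group), and the 5 genes outside the members, with a mean count of at least 50, that are nearest in pattern to the class II chains and *Cd74*. The other genes named, including the overlapping neighbours of members and further examples from the lists, were picked after their values were seen. Progenitor markers (7 tested, 2 called higher in the embryo) are outside that rule and not described further. Sex was not modelled, since it is not given per sample. Intervals and floors cover counting error only, because PCR copies were not told apart.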

Additional observations from a re-analysis of the deposited data

Results flagged for a closer look

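*Cd74* in embryo 2, at 3.11 CPM, lay far above the other 6 embryos, which ran from 0.842 to 1.47 CPM. The gap to the nearest embryo was 0.725 of the whole range. It was the only value with a gap above 0.568 of the range in 14 groups of 7 embryo values, examined for the 10 genes and 4 ratios. Chance gives a gap above 0.568 in about 1 of 20 groups. The 14 groups come from the same libraries, so they are not separate draws. In that library the summed CPM of leukocyte and macrophage markers was also the highest of the embryos, at 486, and the part of these cells in the value was not tested.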

How the results depend on the processing

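The log2 fold change of each member kept its sign under every alternative that could fit it, and only *Tap1* crossed the threshold for a call, with values from −2.19 to −1.63. The calls of *Nlrc5* (−9.75 to −5.32) and *Ciita* (−9.18 to −3.55) rest on few embryo counts. With at least 10 counts required in every sample, *Nlrc5*, *H2-Aa*, *H2-Ab1* and *Ciita* were not tested. Of the 6 members left 5 were called higher in the adult, and 13 of 64 listed pathway genes, against 10.07% of all genes. This filter leaves out genes with few counts in any embryo, so it depends on the difference itself. With no threshold on fold change 47 of 91 pathway genes were higher in the adult and 9 in the embryo, when 27.4% of all genes were higher in the adult. Above a fold change of 2 the pathway genes were 46 and 7. The shares of all genes higher in the embryo, or above a fold change of 2, are not given here. With 1 library left out at a time, 0 to 1 pathway genes were called higher in the embryo. Embryos and adults were separate animals, so the replicate numbers were not read as pairs in the main fit. Correlations of same-numbered libraries were 0.0345 and 0.0237. With 2 adults both rest on 1 difference, and they do not show whether same-numbered libraries were handled together. The replicate block on replicates 1 and 2 gave 8 members and 30 of 92 pathway genes called higher in the adult. It gave 1 pathway gene, *Cd40*, called higher in the embryo, and the shares of all genes were 12.3% and 8.56%. The same 4 libraries without the block, a fit chosen after seeing the data, gave 8, 24 and 1, against 11.03% of all genes higher in the adult and 8.95% in the embryo. Library size alone moved the median log2 fold change of all genes by −0.22 and the block fit by −0.21. With 1 adult left, it was assumed to vary like the embryos. Depth limits *Nlrc5* and *Ciita* most, at 7 and 16 counts over all embryos.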

Other observations

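The adults differed from each other in several genes of the region. *H2-Eb2* had 243 counts in adult 1 and 1078 in adult 2, *H2-T22* had 9.99 and 38.1 CPM, and *H2-Ea-ps* had 15 and 0 counts, whereas *Tap1* had 14.8 and 14.9 CPM. With 1 library of each animal these differences have no replicate check. The adults were also of different sexes, and the part of sex was not tested. *Lyz2*, a lysozyme gene of macrophages and granulocytes, also differed, at 14.1 and 59.5 CPM. It was the most abundant of its list by the adult mean and in adult 2, and not in adult 1. Among the embryos, *Cxcl10*, an interferon-induced chemokine, had 49 counts in embryo 3 and at most 4 in the other embryos.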
